A study of Mus musculus with 6 samples.

Results

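The genes of oxidative phosphorylation, nuclear and mitochondrially encoded, were examined in RAW264.7 cells given titanium (Ti) particles. Members were the protein-coding genes of GENCODE vM21 (GRCm38) named as subunits or named factors of the 5 complexes: Nduf genes for complex I, Sdh genes for complex II, Uqcr genes for complex III, Cox4 to Cox8 genes for complex IV, Atp5 genes for complex V, and the protein-coding genes of the mitochondrial genome. The rule found 107 gene identifiers under 106 names among 55536 annotated genes, 94 in the nuclear genome and 13 in the mitochondrial genome. The nuclear members lay on 19 chromosomes. Total RNA was sequenced in 6 libraries of RAW264.7, an Abelson virus-transformed mouse macrophage line: 3 from cells given PBS, the control, and 3 from cells given Ti particles. The labels give both groups the same background, C57BL/6, which was not checked here. The dose, size and time of exposure to the particles were not given in the sources used here, and no source says whether the libraries of a group were separate cultures; the p-values then reflect only how these libraries spread, which may be technical.

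Oxidative phosphorylation passes electrons from NADH through complex I, or from succinate through complex II, to coenzyme Q, and then through complex III and cytochrome c to complex IV, which reduces oxygen. Complexes I, III and IV pump protons across the inner mitochondrial membrane, and complex V, the ATP synthase, uses that gradient to make ATP. A few core subunits are encoded by the mitochondrial genome, which is transcribed from both strands into long RNAs that are then cut apart, and the remaining subunits are encoded in the nucleus and imported. Macrophages activated by bacterial products are known to move from oxidative phosphorylation towards glycolysis.

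Library totals after rescaling each transcript to its exon length were 37686020 to 60242937 estimated counts, so that 3 counts, taken as the detection limit, were worth 0.0469 to 0.0804 CPM, the counts scaled to the effective library size. This limit covers counting error only. Each value triplet below is in the order of libraries 1, 2 and 3. The libraries carried macrophage markers: 9 of 10 passed the filter on low counts, and their summed level was 5618 to 7471 CPM in the PBS libraries and 6968 to 8798 CPM in the Ti libraries. The marker Mertk was at 0 to 0.129 CPM. None of the fibroblast, epithelial, T cell, B cell or muscle markers passed, and no such list summed to more than 0.395 CPM in any library; the 3 B cell markers were at 0 throughout. Since these are bulk libraries, fewer cells with a transcript and less of it per cell cannot be told apart.

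Levels between genes were compared per length, as counts over exon length, and scaled to the same total in each library (TPM, summed per gene). The counts had been multiplied by exon length over genomic span, so this level is in effect the deposited value over span. At fixed exon length the rescaled values of protein-coding transcripts fell with span (log slope -0.263). Ranks between genes of different span, here and below, are therefore approximate. Genes of long span may be placed too low, which also bears on nuclear against mitochondrial genes. The mitochondrially encoded genes led. mt-Co1, the catalytic subunit of complex IV, had a mean per-length level of 9420.3 TPM over the 6 libraries. mt-Nd1 and mt-Co3 followed at 2816 and 2703 TPM. The highest nuclear members were Atp5b, the catalytic beta subunit of the ATP synthase, at 514 TPM, and Cox4i1, a subunit of complex IV, at 450.3 TPM. The highest nuclear subunit of complex I, Ndufb8, reached 157 TPM. The 8 assembly factors of complex I, which help to build it and leave, had mean per-length levels of 3.74 to 32 TPM. Ndufaf8 led them, and of the 36 nuclear subunits only Ndufa12, Ndufb2, Ndufa2 and Ndufs3, at 28.4, 25.3, 13.5 and 5.45 TPM, were below it.

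**Figure D1:**
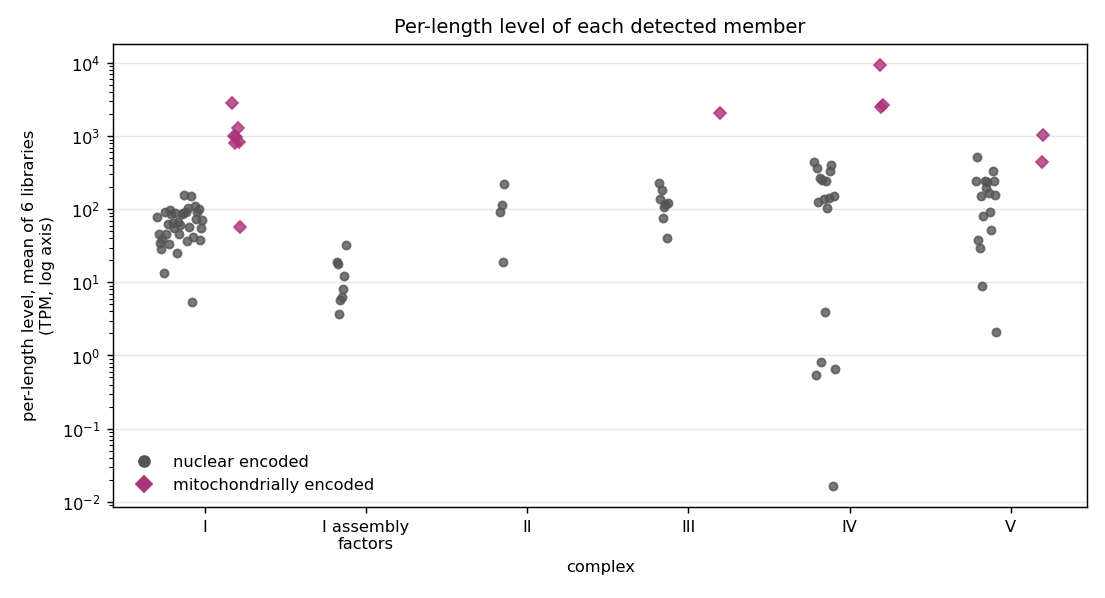
Per-length level of each detected member (vertical log axis, TPM, mean of 6 libraries) by complex; circles are nuclear-encoded and diamonds mitochondrially encoded genes. mt-Co1 is the highest point at 9420.3 TPM, and the low circles of complex IV are tissue-restricted paralogs.

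In the comparison of Ti particles with PBS, no member passed the test. The nuclear members lay slightly below their control levels as a list, with a median log2 fold change of -0.083, and the mitochondrially encoded ones slightly above, with a median of 0.075. Of the 107 members, 101 passed the filter on low counts, 89 nuclear and 12 mitochondrial. Those left out were mt-Nd6, Cox6b2, Cox7b2, Cox8b, Cox8c and a second identifier of Atp5o. EdgeR's quasi-likelihood test called 0 of 101 members at an adjusted p of 0.05, with a lowest adjusted p of 0.546, and 2 at an unadjusted p under 0.05. Over all genes the same rule called 4 of 15376, or 0.026%, and an unadjusted p under 0.05 was reached by 6.76%. DESeq2 called 0 members, with a lowest adjusted p of 0.129, against 1.9% of all genes. DESeq2 gave 3 members an unadjusted p under 0.05, against 8.53% of all genes. When same-numbered libraries were blocked together, edgeR called 0 members and 0 genes, and 3 members had an unadjusted p under 0.05, against 9.37% of all genes.

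The intervals, which are not adjusted for the number of genes tested, show how closely the 6 libraries fixed each fold change. The 95% interval of the log2 fold change lay within 1 log2 unit of 0 on both sides for 83 of 101 members, and for 55.4% of all tested genes. The median half-width of that interval was 0.43 for nuclear members, wider than most of their fold changes. Of the 89 nuclear members 66 (74.2%) had a log2 fold change below 0, against 49.1% of all tested genes and 51.4% of protein-coding genes with a mean of at least 5 CPM. The quartiles of the nuclear members were -0.14 and 0.0013. These counts describe the list and carry no test. The 3 PBS and 3 Ti values did not overlap for 5 members: Cox6a2 was higher, against 6.63% of all genes in that direction, and Atp5e, Sdhc, Uqcrh and Ndufa11 were lower, against 6.71%. These counts, 1 and 4 of 101, are near or below the background shares.

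**Figure D2:**
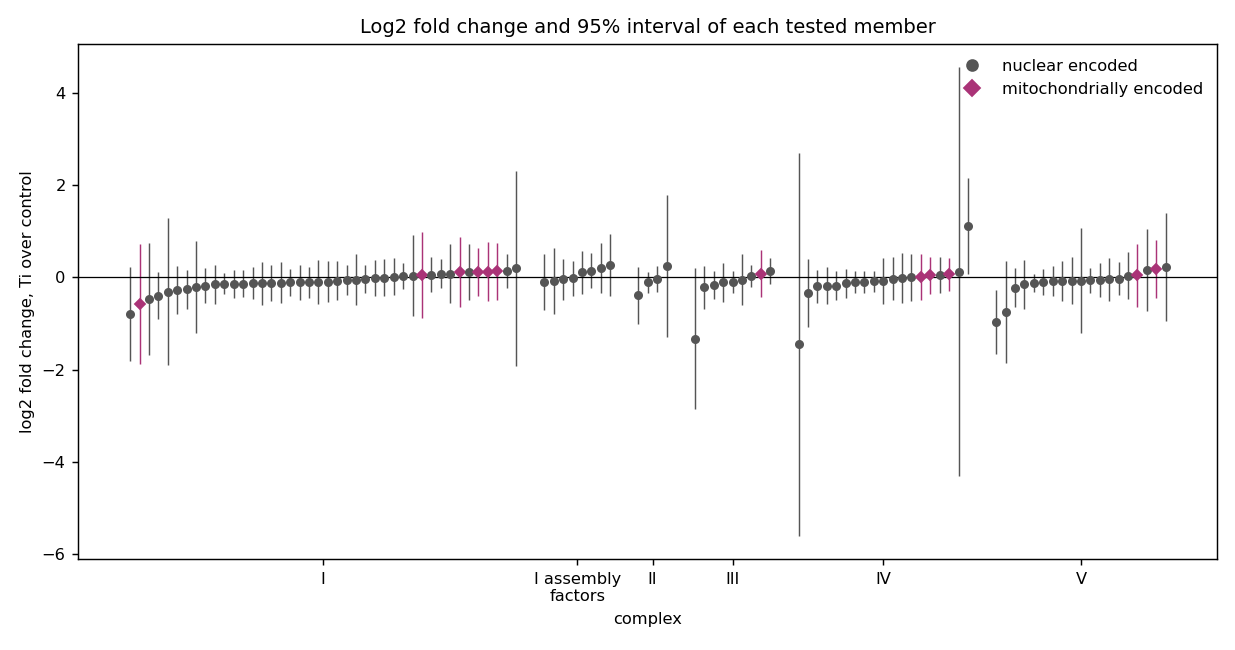
Log2 fold change, Ti over PBS control, of the 101 tested members by complex, in rising order within a complex; points are edgeR estimates from 3 libraries a group, bars are 95% intervals, circles nuclear-encoded and diamonds mitochondrially encoded genes. All bars but those of Atp5e and Cox6a2 cross 0, and the widest belong to genes under 1 CPM (Cox4i2, Ndufa4l2) or to genes that 1 or more libraries set apart.

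The libraries varied within each group in these genes. The median deviation of the 89 nuclear members from their control mean, on the log2 scale, was 0.075, 0.085 and -0.17 in the PBS libraries and -0.12, 0.065 and -0.17 in the Ti libraries. The PBS and Ti libraries numbered 3 were both low and those numbered 2 both high, whereas PBS library 1 was high and Ti library 1 low. Library 3 was the lowest of the PBS group for 65 of 89 nuclear members (73.0%), against 36.7% of all tested genes, and for 11 of 12 mitochondrially encoded ones. Library 2 was the highest of the Ti group for 61 of 89 nuclear members (68.5%) and 11 of 12 mitochondrially encoded ones, against 33.8% of all genes. Summed over nuclear members the level was 7446, 7584 and 6051 CPM in the PBS libraries and 6155, 7172 and 6587 CPM in the Ti libraries. The PBS library 3 lay below every Ti library, and the ratio of the group means was 0.945.

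**Figure D3:**
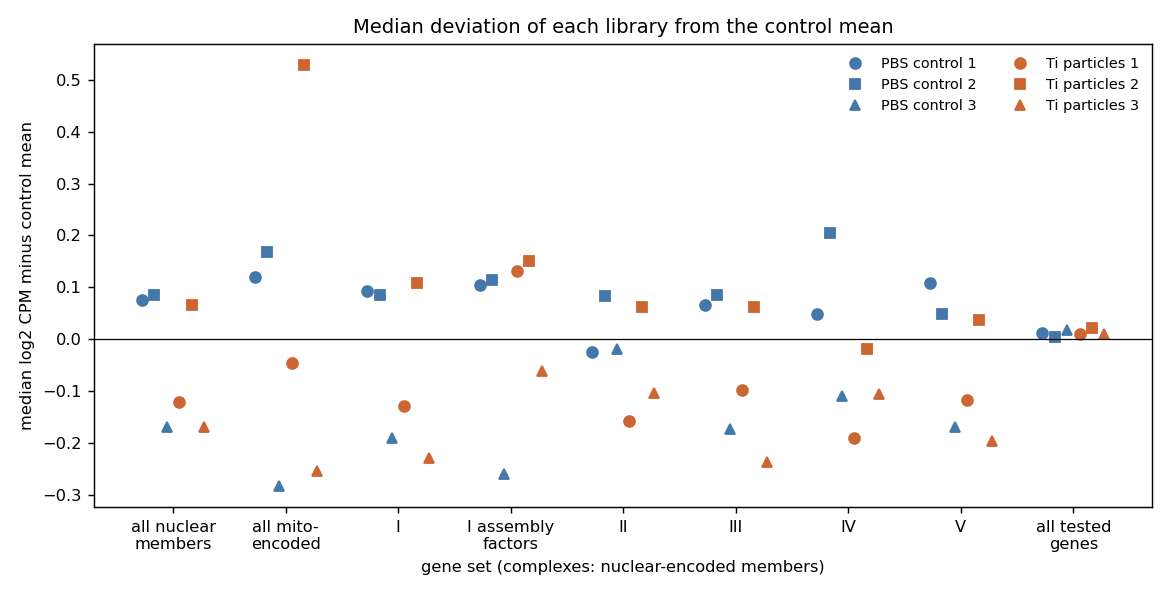
Median over the tested members of a set of log2 CPM minus the control mean, one point per library (blue PBS control, orange Ti particles; circle, square and triangle are libraries 1, 2 and 3). The triangles of both groups lie low in most sets, whereas over all tested genes the 6 points lie between 0.005 and 0.021.

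Complex I oxidises NADH. All 36 nuclear subunits were tested; 27 had a log2 fold change below 0, with a median of -0.10, and 0 passed. The nuclear core subunits, which carry the flavin and the iron-sulfur clusters, had a median of -0.14 over 7 genes. Ndufb8, a supernumerary subunit of the membrane arm, had 108, 104 and 76.5 CPM in the PBS libraries and 89.5, 96.1 and 79.1 CPM in the Ti libraries. Its groups overlapped, at a log2 fold change of -0.12 (SE 0.16, adjusted p = 0.965). Ndufs5, also a supernumerary subunit of the membrane arm, ranged over 41.2 to 53.6 CPM with a log2 fold change of 0.078 (SE 0.13, adjusted p = 0.969).

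The largest fold changes among nuclear-encoded complex I subunits of at least 5 CPM belonged to the supernumerary subunits Ndufa12, Ndufa10 and Ndufb9. Ndufb9 (chr15:58933756-58939488) stood at 58.7, 64.5 and 50.5 CPM in the PBS libraries and 36.7, 57.1 and 38.1 CPM in the Ti libraries. Ti libraries 1 and 3 were below all PBS libraries and Ti library 2 was within their range. Its log2 fold change was -0.40 (SE 0.21, adjusted p = 0.816), and with the replicate block it was 1 of the 3 members with an unadjusted p under 0.05, beside Ndufs7, a core subunit with an iron-sulfur cluster, and Atp5o. Ndufa12 (chr10:94198720-94221443) had 29, 13.9 and 10.5 CPM in the PBS libraries and 9.38, 13.2 and 8.32 CPM in the Ti libraries. PBS library 1 stood apart, and the log2 fold change of -0.79 (SE 0.42, adjusted p = 0.817) became -0.25 without it. Ndufa11, a supernumerary membrane subunit named here because its groups did not overlap, had 16.6, 15.8 and 16.7 CPM in the PBS libraries and 14.7, 14.7 and 15.5 CPM in the Ti libraries. Every Ti value was below every PBS value, by a log2 fold change of -0.13 (SE 0.12, adjusted p = 0.933).

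Ndufa10 (chr1:92439010-92473860) carried its level in different transcripts in different libraries. In total it had 79.7, 81.5 and 26.9 CPM in the PBS libraries and 63, 46.7 and 26.3 CPM in the Ti libraries, with a log2 fold change of -0.47 (SE 0.50, adjusted p = 0.945). Its protein-coding transcript ENSMUST00000027478 had 1.19, 2.15 and 20.3 CPM in the PBS libraries and 57.7, 42.6 and 19.6 CPM in the Ti libraries. A transcript of the nonsense-mediated decay class, ENSMUST00000189503, had 68.6, 73.1 and 0 CPM in the PBS libraries and 0, 0 and 0 CPM in the Ti libraries. PBS libraries 1 and 2 thus had most of the gene's counts in the decay transcript, and the other 4 libraries had none there. Counting protein-coding transcripts alone turned the gene's log2 fold change to 2.34, with an adjusted p of 0.769. The transcripts differ in a coding stretch of 134 bases at the end of an exon, chr1:92470817-92470950 on the minus strand (GRCm38), which the decay transcript lacks. It is shown in capitals, with 20 flanking bases of the coding transcript on each side, because it distinguishes the forms:
Ndufa10 stretch: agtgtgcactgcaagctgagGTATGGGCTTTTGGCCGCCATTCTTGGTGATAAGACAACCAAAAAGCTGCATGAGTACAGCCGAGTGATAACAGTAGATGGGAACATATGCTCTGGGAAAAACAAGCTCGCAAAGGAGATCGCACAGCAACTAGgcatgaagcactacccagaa

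The 8 complex I assembly factors had 4 values below 0 and 4 above, with a median log2 fold change of 0.047, and none passed. Ndufaf8, the most abundant per length and in humans a partner of Ndufaf5, had 20.4, 21.3 and 16.5 CPM in the PBS libraries and 18.6, 22.1 and 15.8 CPM in the Ti libraries. The Ti values enclosed the PBS values. Ndufaf1, a factor of the membrane arm, had 21.1, 20.5 and 16.6 CPM in the PBS libraries and 23.6, 20.8 and 20.2 CPM in the Ti libraries, a log2 fold change of 0.15 (SE 0.15, adjusted p = 0.945). The largest change in the list was that of Ndufaf4, at 4.7 to 9.05 CPM and a log2 fold change of 0.27 (SE 0.28, adjusted p = 0.941). Ndufaf2, a paralog of Ndufa12, ranged over 6.9 to 13.1 CPM with a log2 fold change of -0.075 (SE 0.30, adjusted p = 0.992). Ndufaf5, an enzyme that hydroxylates Ndufs7, had a log2 fold change of 0.21 (SE 0.23, adjusted p = 0.947), which turned to -0.42 when protein-coding transcripts were counted alone.

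Complex II, succinate dehydrogenase, has no mitochondrially encoded subunit. Of its 4 subunits 3 had values below 0, and none passed. Sdha, the flavoprotein (chr13:74322254-74350280), stood at 38.4, 265 and 226 CPM in the PBS libraries and 205, 219 and 211 CPM in the Ti libraries. PBS library 1 was far below the other 5, which lay within 205 to 265 CPM. The log2 fold change of 0.26 (SE 0.63, adjusted p = 0.982) therefore rested on that library and was -0.22 without it. Sdhb, the iron-sulfur subunit, had 104, 113 and 108 CPM in the PBS libraries and 93.9, 107 and 101 CPM in the Ti libraries. Its groups overlapped, at a log2 fold change of -0.10 (SE 0.095, adjusted p = 0.93). Sdhc, a membrane anchor (chr1:171127165-171150603), had 53.1, 46.9 and 48.2 CPM in the PBS libraries and 24.1, 43.6 and 45.7 CPM in the Ti libraries. All Ti values were below all PBS values, mostly through Ti library 1: the log2 fold change was -0.39 (SE 0.25, adjusted p = 0.864) and -0.15 without that library.

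Sdhd, the other anchor and the most abundant subunit per length (225 TPM), had 222, 238 and 205 CPM in the PBS libraries and 205, 244 and 202 CPM in the Ti libraries. The groups overlapped, and the log2 fold change was -0.03 with a 95% interval of -0.31 to 0.25. Its promoter is shown because it holds both motifs searched for below. The window, chr9:50603800-50604099 on the minus strand, runs from 250 bases before to 50 after the start of transcription in RefSeq (GRCm38.p6), and capitals mark the NRF1 and then the ETS motif, on either strand:
Sdhd promoter: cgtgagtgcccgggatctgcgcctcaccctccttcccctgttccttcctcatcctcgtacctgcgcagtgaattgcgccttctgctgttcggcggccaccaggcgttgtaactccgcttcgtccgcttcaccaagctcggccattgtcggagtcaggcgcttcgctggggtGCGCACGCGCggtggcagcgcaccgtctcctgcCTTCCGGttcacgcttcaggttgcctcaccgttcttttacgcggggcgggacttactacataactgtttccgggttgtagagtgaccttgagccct

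Complex III passes electrons from coenzyme Q to cytochrome c. Of its 8 nuclear subunits with Uqcr names 6 had values below 0, with a median of -0.10. Cytochrome c1, Cyc1, is also a nuclear subunit, but the rule leaves it out by its name. It is counted below with cytochrome c, at a log2 fold change of -1.06 (SE 0.81, adjusted p = 0.898). Cyc1 had 36.8, 6.58 and 7.74 CPM in the PBS libraries and 14.1, 6.67 and 3.79 CPM in the Ti libraries. PBS library 1 stood apart, and the groups overlapped. Uqcr10 and Uqcrb, small subunits at 229 and 183 TPM, were the most abundant of the 8 per length. Uqcr10 had 90.8, 89.97 and 64.7 CPM in the PBS libraries and 76.8, 84.6 and 66.5 CPM in the Ti libraries, and Uqcrb had 85.8, 88.3 and 63.3 CPM in the PBS libraries and 76.4, 96.5 and 57.6 CPM in the Ti libraries. In both genes library 3 was the lowest of its group, and the log2 fold changes were -0.11 (SE 0.17, adjusted p = 0.967) and -0.044 (SE 0.23, adjusted p = 0.994). Uqcr11, another small subunit, had 56.1, 61.4 and 42.7 CPM in the PBS libraries and 44.1, 55 and 39.7 CPM in the Ti libraries. Its groups overlapped, at a log2 fold change of -0.21 (SE 0.19, adjusted p = 0.933). Uqcrc1, a core protein facing the matrix, had 113, 110.2 and 88.2 CPM in the PBS libraries and 89, 91.6 and 98.2 CPM in the Ti libraries. PBS library 3 was the lowest of all 6, and the log2 fold change was -0.16 (SE 0.13, adjusted p = 0.904).

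Uqcrh, the hinge protein by which the complex meets cytochrome c (chr4:116066965-116075071), had the largest fold change of the complex. It stood at 10.9, 11 and 47.6 CPM in the PBS libraries and 7.42, 9.4 and 10.9 CPM in the Ti libraries. Only PBS library 3 was high, and PBS libraries 1 and 2 were barely above the highest Ti library. The high level was its protein-coding transcript ENSMUST00000078676, at 36.9 CPM in PBS library 3 and under the detection limit in the other 5 libraries, where the counts stood in transcripts annotated as retained introns or as processed. The log2 fold change was -1.33 (SE 0.63, adjusted p = 0.785) and -0.24 without PBS library 3. The level of this gene is therefore uncertain.

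Complex IV, cytochrome c oxidase, had 20 nuclear members, 16 of them tested; 12 were below 0, with a median of -0.093. Cox4i1, a regulatory subunit (chr8:120668222-120674207), had 214, 316 and 236 CPM in the PBS libraries and 281, 196 and 290.2 CPM in the Ti libraries. The groups overlapped, and the log2 fold change was 0.0013 (SE 0.21, adjusted p = 1). Cox8a, a small subunit, had 185, 186 and 166 CPM in the PBS libraries and 174, 173 and 159 CPM in the Ti libraries, at a log2 fold change of -0.087 (SE 0.091, adjusted p = 0.945). Cox5a, which lies on the matrix side, had 209, 193 and 192 CPM in the PBS libraries and 169.5, 189 and 196 CPM in the Ti libraries, at a log2 fold change of -0.10 (SE 0.095, adjusted p = 0.938). Ti library 1 was the lowest of the 6 for Cox5a, and Ti library 3 for Cox8a. The largest changes at 5 CPM or more were those of the small subunit Cox6c at -0.19 (SE 0.14, adjusted p = 0.89), of Cox6b1, on the intermembrane face, at a log2 fold change of -0.18 (SE 0.17, adjusted p = 0.933), and of the zinc-binding subunit Cox5b at -0.18 (SE 0.13, adjusted p = 0.884). Their groups overlapped in each case.

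Several subunits of complex IV exist as ubiquitous and tissue-restricted paralogs, and the ubiquitous forms prevailed in these cells. Cox6a1, the ubiquitous form, had 131, 129 and 119.8 CPM in the PBS libraries and 109.9, 127 and 116 CPM in the Ti libraries. Cox6a2, the form of heart and skeletal muscle, had 0.188, 0.399 and 0.24 CPM in the PBS libraries and 0.558, 0.429 and 0.79 CPM in the Ti libraries. All 3 Ti values of Cox6a2 exceeded all PBS values, but none reached 1 CPM, and its log2 fold change of 1.12 (SE 0.43, adjusted p = 0.707) had an unadjusted p of 0.0392. Its exons overlap those of Itgad on the opposite strand by 70 bases, and Itgad was at 0. The 4 muscle markers summed to 0 to 0.0959 CPM in the PBS libraries and 0.134 to 0.395 CPM in the Ti libraries, with 2 of them at 0 throughout; their part in the result was not tested.

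Other paralog sets had the same order. Cox4i2, the form known from lung and low oxygen, had 0 to 0.915 CPM, and the 95% interval of its log2 fold change was -4.31 to 4.56. Cox7a2 and Cox7a2l, the latter a factor of supercomplex assembly, had 103 to 151 CPM and 76.7 to 99.4 CPM, against 0.79 to 1.65 CPM for Cox7a1, the form of muscle. Cox6b1 had 108 to 159.6 CPM, and the testis form Cox6b2 was at 0 in all 6 libraries, under the limit of 3 counts. Of the Cox8 paralogs, Cox8b had 0.0215 CPM in Ti library 1 and 0 elsewhere, and Cox8c was at 0. Ndufa4, first described in complex I and now placed in complex IV, had 60.1 to 89.9 CPM and a log2 fold change of -0.074 (SE 0.20, adjusted p = 0.987). Its hypoxia-induced paralog Ndufa4l2 had 0.797, 0 and 0.719 CPM in the PBS libraries and 0, 0 and 0.541 CPM in the Ti libraries. With 3 libraries at 0 and the rest under 1 CPM no direction could be read for it.

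The Cox6a1 promoter is shown as another window with both motifs, here with the NRF1 motif present at 2 places before the ETS motif. It covers chr5:115348909-115349208 on the minus strand (GRCm38.p6), with the motifs, on either strand, in capitals:
Cox6a1 promoter: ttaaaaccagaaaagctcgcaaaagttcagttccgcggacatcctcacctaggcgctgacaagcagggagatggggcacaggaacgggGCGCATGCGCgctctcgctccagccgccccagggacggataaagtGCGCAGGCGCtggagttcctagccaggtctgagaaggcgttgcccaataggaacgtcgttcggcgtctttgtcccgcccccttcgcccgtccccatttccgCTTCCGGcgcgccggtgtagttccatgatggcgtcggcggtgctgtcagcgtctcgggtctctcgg

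Complex V had 18 nuclear members, 17 tested and 14 below 0, with a median of -0.068. Its largest change was that of Atp5e, the epsilon subunit of the central stalk (chr2:174461072-174464105), which had the lowest p of all members. It stood at 104, 55.6 and 87.5 CPM in the PBS libraries and 30.5, 48.6 and 47 CPM in the Ti libraries. Every Ti value was below every PBS value, PBS library 2 being close to the Ti libraries. The log2 fold change was -0.97 (SE 0.29, adjusted p = 0.546), its unadjusted p was 0.0146, and it ranged from -1.19 to -0.77 when any 1 library was left out. The coding transcript ENSMUST00000016396 carried the difference, at 94.1, 35 and 78.6 CPM in the PBS libraries and 18.9, 29.3 and 26.7 CPM in the Ti libraries. The retained-intron transcript ENSMUST00000149191 had 9.59, 20.5 and 8.91 CPM in the PBS libraries and 11.6, 19.3 and 20.4 CPM in the Ti libraries and no such order.

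Atp5b (chr10:128083273-128090391) had 987, 728 and 328 CPM in the PBS libraries and 398, 630.0 and 925 CPM in the Ti libraries. The Ti values lay within the range of the PBS values, and the log2 fold change of -0.065 (SE 0.46, adjusted p = 0.997) had an interval of -1.20 to 1.07. Without 1 library it ranged from -0.40 to 0.30, above 0 without PBS library 1 or Ti library 1, and without both libraries numbered 3, a setting chosen after seeing the data, it was -0.73. Its retained-intron transcript ENSMUST00000126040 stood at 143, 81.1 and 197 CPM in the PBS libraries and 126, 78.5 and 177 CPM in the Ti libraries. PBS library 3 was the one library in which it exceeded the coding transcript. Atp5l, subunit g in the membrane, had 184, 186 and 146 CPM in the PBS libraries and 158, 179 and 149 CPM in the Ti libraries and a log2 fold change of -0.083 (SE 0.13, adjusted p = 0.967). Atp5o, the peripheral stalk subunit that confers oligomycin sensitivity, had 101, 133 and 94.2 CPM in the PBS libraries and 91.3, 108 and 83.1 CPM in the Ti libraries. The groups overlapped, at a log2 fold change of -0.22 (SE 0.17, adjusted p = 0.908).

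The c ring that turns in the membrane is encoded by 3 genes with near-identical mature products, Atp5g1, Atp5g2 and Atp5g3. They had 44.1 to 60.2 CPM, 126 to 158 CPM and 103 to 125 CPM. Per length they stood at 79.8, 247 and 198 TPM, so that Atp5g2 and Atp5g3 led. Their log2 fold changes of -0.058, -0.10 and -0.06 had adjusted p of 0.984, 0.954 and 0.969. Reads that could not be placed between these genes would make their split uncertain, but such reads were not counted here.

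Atp5c1, the gamma subunit that turns inside the catalytic head (chr2:10056016-10080510), had 75.5, 31.9 and 26.1 CPM in the PBS libraries and 22.9, 35.7 and 20.8 CPM in the Ti libraries. PBS library 1 stood apart, and the log2 fold change of -0.75 (SE 0.45, adjusted p = 0.848) was -0.14 without it. Its transcripts differ by a 37-base exon, chr2:10056770-10056806, which heart and skeletal muscle are known to skip and other tissues to include. The coding ends of both forms (GENCODE vM21, minus strand) are shown with the bases after the junction in capitals, because the 2 forms stood in different proportions in the libraries:
Atp5c1 exon included: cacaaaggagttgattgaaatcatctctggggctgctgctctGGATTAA
Atp5c1 exon skipped: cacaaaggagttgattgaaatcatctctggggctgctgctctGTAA
The share of the exon was computed per length over 2 transcripts that include it and the skipped form ENSMUST00000026887. Any other transcripts of the gene were left out. The share with the exon was 17.6%, 65.4% and 26.3% in the PBS libraries and 66.9%, 69.6% and 57.9% in the Ti libraries. The groups overlapped through PBS library 2. The skipped form ENSMUST00000026887 had 59.3, 9.29 and 17.9 CPM in the PBS libraries and 6.47, 9.17 and 7.76 CPM in the Ti libraries, an unadjusted p of 0.0372 and an adjusted p of 1, and the main included form ENSMUST00000114897 had 9.55, 17.6 and 5.78 CPM in the PBS libraries and 10.02, 16.1 and 9.97 CPM in the Ti libraries.

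Atp5j, coupling factor 6 of the peripheral stalk (chr16:84827866-84835625), had 85.3, 70.1 and 65.9 CPM in the PBS libraries and 69, 82 and 66.6 CPM in the Ti libraries and a log2 fold change of -0.025 (SE 0.15, adjusted p = 0.994). Of its counts 83.3% stood in the retained-intron transcript ENSMUST00000146103. The gene starts beside Gabpa, on the opposite strand, which encodes the DNA-binding subunit of the ETS factor GABP, and their exons overlap by 175 bases; without a stated strand, reads there cannot be told apart. Gabpa had 56.9, 76.9 and 38.6 CPM in the PBS libraries and 61.4, 127 and 59.7 CPM in the Ti libraries. Ti library 2 was the highest for Gabpa and the highest of its group for Atp5j. RefSeq gives 2 promoter windows for Atp5j on the minus strand (GRCm38.p6). The one at the gene start above, chr16:84835576-84835875, holds neither motif. The other, chr16:84834927-84835226, was picked because it holds an ETS motif, shown in capitals:
Atp5j promoter: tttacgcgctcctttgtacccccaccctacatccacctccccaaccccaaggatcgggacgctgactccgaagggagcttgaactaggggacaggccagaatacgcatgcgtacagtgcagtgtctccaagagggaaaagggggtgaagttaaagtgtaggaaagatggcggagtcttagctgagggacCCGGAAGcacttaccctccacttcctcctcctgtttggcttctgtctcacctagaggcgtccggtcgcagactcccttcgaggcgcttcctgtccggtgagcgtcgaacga

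The 13 mitochondrially encoded genes took 1.77% to 2.67% of the counts of a library. Of the 12 tested 11 had log2 fold changes above 0, of 0.0049 to 0.18, and 0 passed (lowest adjusted p 0.933). Summed, they had 23862, 24841 and 18165 CPM in the PBS libraries and 21484, 26928 and 20668 CPM in the Ti libraries. Ti library 2 was the highest and PBS library 3 the lowest, so the groups overlapped. The direction depended on single libraries: the median log2 fold change was -0.054 without PBS library 3 and -0.16 without Ti library 2, when all 12 were below 0. The ratio of the summed mitochondrial to the summed nuclear level was 3.20, 3.28 and 3.0 in the PBS libraries and 3.49, 3.75 and 3.14 in the Ti libraries. PBS libraries 1 and 2 exceeded Ti library 3, so these groups overlapped too.

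mt-Co1 had 11770.1, 12597 and 9429.8 CPM in the PBS libraries and 10747, 13195 and 11425 CPM in the Ti libraries, at a log2 fold change of 0.066 (SE 0.14, adjusted p = 0.981). Its interval of -0.28 to 0.42 was the narrowest of the mitochondrially encoded genes. mt-Co2 and mt-Co3, the other core subunits of complex IV, had log2 fold changes of 0.0049 (SE 0.21, adjusted p = 1) and 0.044 (SE 0.16, adjusted p = 0.992), and mt-Cytb, the only mitochondrially encoded subunit of complex III, 0.085 (SE 0.21, adjusted p = 0.982). mt-Cytb stood at 1888, 2047 and 1527 CPM in the PBS libraries and 1834, 2459 and 1502 CPM in the Ti libraries. Ti library 2 was the highest here too. The ATP synthase subunits mt-Atp6 and mt-Atp8, whose genes overlap by 43 bases, had 174 to 335 CPM and 135 to 261 CPM, with log2 fold changes of 0.047 (SE 0.28, adjusted p = 0.994) and 0.18 (SE 0.26, adjusted p = 0.967).

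The subunits of complex I, which form its proton-pumping membrane part, showed the exceptions. mt-Nd1 had 2505, 2261 and 1439 CPM in the PBS libraries and 2119, 3091 and 1518 CPM in the Ti libraries. Library 3 was the lowest of each group and Ti library 2 the highest of all. mt-Nd2, mt-Nd3, mt-Nd4l and mt-Nd5 had log2 fold changes of 0.12, 0.053, 0.13 and 0.12, and in each Ti library 2 was again the highest. mt-Nd4 (chrM:10167-11544) had 1419, 1347 and 955 CPM in the PBS libraries and 1225, 263 and 999 CPM in the Ti libraries. Here Ti library 2 was the lowest, although mt-Nd4l, whose gene overlaps mt-Nd4 by 7 bases, had 314, 322 and 237 CPM in the PBS libraries and 272, 440.3 and 244 CPM in the Ti libraries. The log2 fold change of mt-Nd4 was -0.58 (SE 0.53, adjusted p = 0.933) and -0.16 without that library.

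mt-Nd6 (chrM:13552-14070), the only one of these genes on the other strand of the mitochondrial genome, overlaps mt-Nd5 by 14 bases. It had 0.0625, 0.0997 and 0.0959 CPM in the PBS libraries and 0.0858, 0.107 and 134 CPM in the Ti libraries. In 5 libraries this was the same deposited estimate of 4 counts, close to the detection limit, and only Ti library 3 was above 1 CPM. It did not pass the filter on low counts, and no fold change is given.

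**Figure D4:**
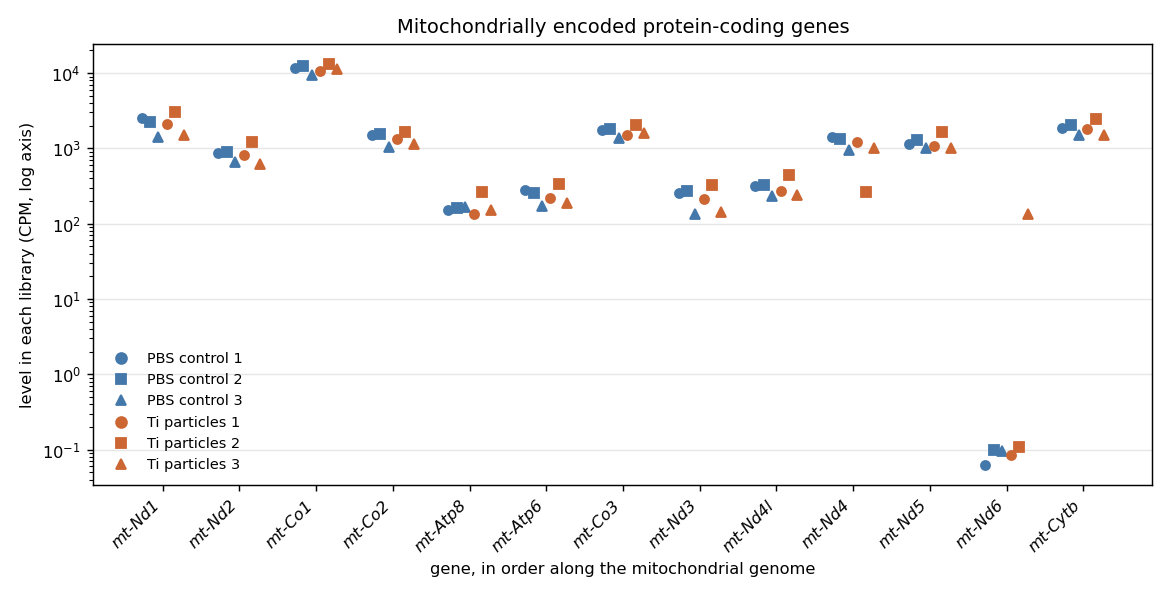
Level of the 13 mitochondrially encoded genes in each library (vertical log axis, CPM), in order along the mitochondrial genome; blue is PBS control, orange Ti particles, and the marker shape gives the library number. mt-Nd4 is low in Ti library 2 (263 CPM), and mt-Nd6 is high in Ti library 3 alone (134 CPM).

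Uneven libraries of this kind occurred in other genes too. Of 93 members with a mean of at least 5 CPM 9 had a highest library at least 3 times the lowest, or 9.68%, against 15% of 9718 such genes. They were Ndufb10, Sdha, Uqcrh, mt-Nd4, Atp5c1, Ndufa12, Atp5e, Ndufa10 and Atp5b. Ndufb10, a supernumerary subunit of complex I named here for its spread, had 31, 41 and 6.42 CPM in the PBS libraries and 6.57, 45.6 and 37.7 CPM in the Ti libraries. One library of each group was low, and its log2 fold change of 0.20 (SE 0.87, adjusted p = 0.994) was -0.26 without PBS library 3.

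**Figure D5:**
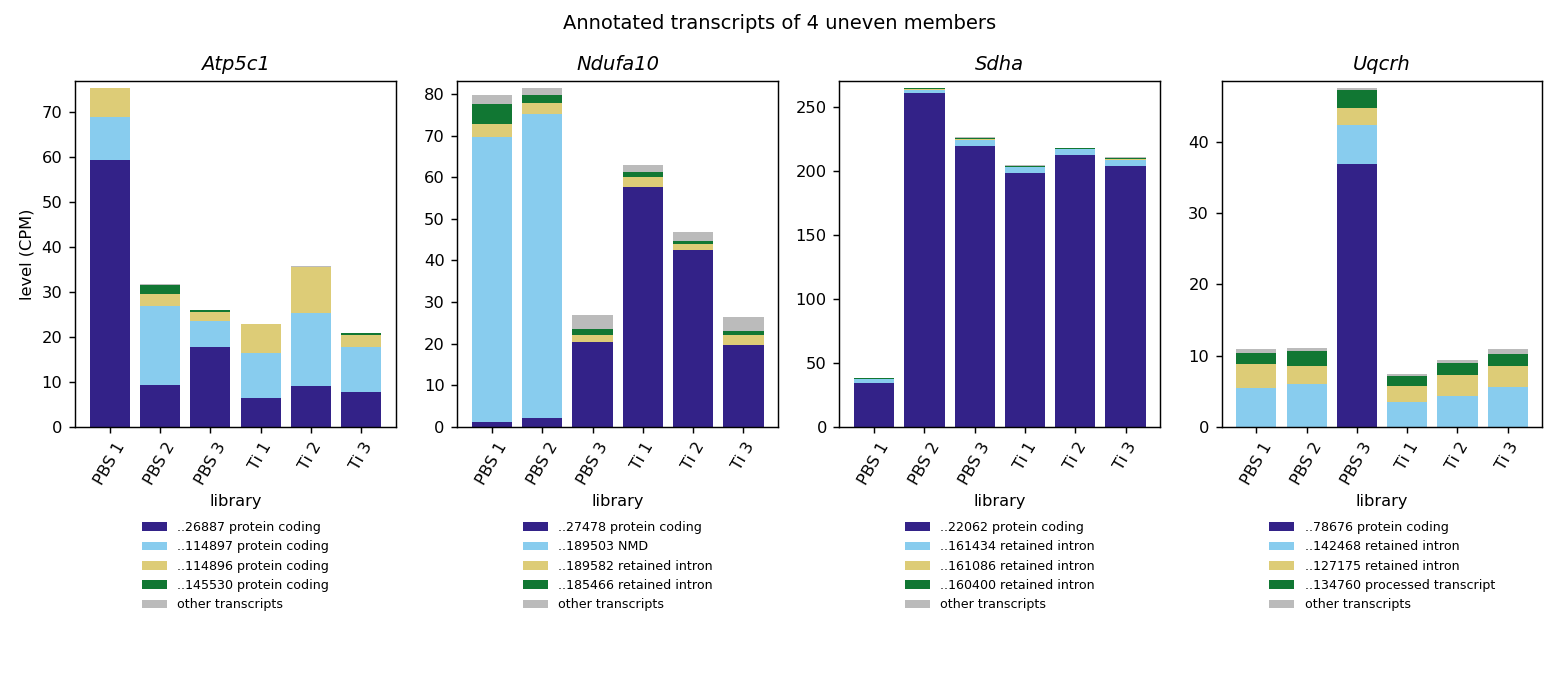
Level (CPM, stacked bars from 0) of the annotated transcripts of Atp5c1, Ndufa10, Sdha and Uqcrh in each library; the 4 most abundant transcripts of each gene have a colour, named by the last digits of the identifier and by type (NMD, nonsense-mediated decay), and the rest are grey. The high bars of Atp5c1 in PBS 1 and of Uqcrh in PBS 3, and the low bar of Sdha in PBS 1, each come from 1 coding transcript, and that of Ndufa10 changes type between libraries.

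Members had 444 annotated transcripts, 301 of them tested. EdgeR called 0 of these 301, against 0.00721% of 41599 annotated transcripts, and 12 of them had an unadjusted p under 0.05, or 3.99% against 4.29%. The lowest adjusted p, 0.214, belonged to ENSMUST00000147484 of Ndufv2, a core subunit of complex I. This coding transcript had 0.881, 1.22 and 0.581 CPM in the PBS libraries and 0.0911, 0.0821 and 0.115 CPM in the Ti libraries. All Ti values were below all PBS values, but at 1.22 CPM or less, while the gene's main transcript ENSMUST00000143987 had 83.8, 53.6 and 66.9 CPM in the PBS libraries and 52.4, 60.1 and 45.3 CPM in the Ti libraries and overlapping groups. Of 80 detected members with more than 1 transcript, 59 had the same leading transcript in every library and 21 did not.

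Transcripts annotated as protein-coding held 90.5% to 93.4% of the nuclear members' level, and retained-intron transcripts 5.11% to 8.16%. Retained-intron shares were 6.06, 5.11 and 8.16% in the PBS libraries and 6.35, 5.29 and 8.04% in the Ti libraries. The libraries numbered 3 were the highest and those numbered 2 the lowest of their groups. Of 168 tested coding transcripts of all members, mitochondrial ones included, 109 were below 0, and of 88 retained-intron transcripts 43. Shares over all tested transcripts of these types are not given here, so the counts only describe the list. For 8 of 103 detected members the leading transcript was not a coding one: Atp5f1, Atp5j, Ndufa4l2, Ndufa7, Ndufaf4, Ndufaf5, Ndufb10 and Ndufs3. Atp5f1, the b subunit of the peripheral stalk, had 2.61, 3.12 and 3.21 CPM in the PBS libraries and 3.69, 1.77 and 4.49 CPM in the Ti libraries, with 0% of its counts in coding transcripts. Its level, like that of Ndufa7 at 9.09 to 15.9 CPM and Ndufs3 at 1.23 to 5.7 CPM, is therefore uncertain. Further, 33 of 94 nuclear members have an exon that overlaps another gene, 29 of them on the opposite strand, and 5 members have 7 pseudogenes named after them.

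NRF1 and the ETS factor GABP are known to activate genes of the respiratory chain, so the promoters were searched for the letters GCGC, any base, then TGCGC (NRF1) and the letters CCGGAAG (ETS) on both strands. RefSeq windows of 300 bases matched 74 nuclear members, with 79 windows in all. The NRF1 letters were in 20 windows (25.3%), against 4.6% of 32851 windows of all genes and 10.4% of windows of the genes tested here. The ETS letters were in 18 (22.8%), against 8.86% and 18.5%. Both were in 4 windows (5.06%), against 0.892% and 2.19%. Members with the NRF1 letters had a median log2 fold change of -0.088 over 19 tested genes, and those without, -0.085 over 52. For the ETS letters the medians were -0.10 over 18 genes and -0.074 over 53. The quartiles overlapped, from -0.14 to 0.037 with the NRF1 letters and -0.13 to -0.022 without.

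Genes around the complexes also gave no call, with edgeR or DESeq2. Of the genes for cytochrome c, cytochrome c1 and coenzyme Q synthesis 15 were tested, 9 below 0, with a median of -0.062. Cycs, cytochrome c itself, had 158, 174 and 127 CPM in the PBS libraries and 152, 152 and 136 CPM in the Ti libraries and a log2 fold change of -0.062 (SE 0.14, adjusted p = 0.981). Of 42 assembly factors beyond complex I's Ndufaf genes 22 were below 0 (median -0.039). Cox17, a copper chaperone of complex IV, had a log2 fold change of 0.32 (SE 0.13, adjusted p = 0.736) with an unadjusted p of 0.0482. Of 30 genes for expression of the mitochondrial genome 19 were above 0, with a median of 0.092. Tfb2m, the initiation factor of mitochondrial transcription, had 7.36, 7.06 and 6.45 CPM in the PBS libraries and 11, 10.5 and 8.36 CPM in the Ti libraries. All Ti values of Tfb2m exceeded all PBS values, at a log2 fold change of 0.52 (SE 0.18, adjusted p = 0.646). Of these 30 genes 3 were higher without overlap and 1 was lower, against 6.63% and 6.71% of all genes. Tfam, which packages mitochondrial DNA, had a log2 fold change of -0.044 (SE 0.12, adjusted p = 0.984).

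Of 17 enzymes of the citric acid cycle and of the pyruvate dehydrogenase complex 13 were below 0, with a median of -0.032. Among 12 tested regulators of mitochondrial biogenesis 7 were below 0 (median -0.016), with Nrf1 at a log2 fold change of -0.043 (SE 0.16, adjusted p = 0.992); Ppargc1a, a coactivator of these genes, was at 0 in 5 libraries and at 0.0625 CPM in the other. Of 17 carriers and uncoupling genes 11 were below 0 (median -0.070). Slc25a4, an ADP/ATP carrier, had 213, 212 and 50.1 CPM in the PBS libraries and 203, 221 and 192 CPM in the Ti libraries, PBS library 3 standing apart. The count at an unadjusted p under 0.05 was 1 of 15, 2 of 42, 2 of 30, 1 of 17, 0 of 12 and 0 of 17 in these lists, in that order, against 6.76% of all genes.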

How the data were processed

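Total RNA of 3 PBS and 3 Ti libraries was used. The deposited values are whole-number estimated counts in 187351 transcript rows; reads were processed with HISAT2 and StringTie, and build mm9 is listed, per the submitters' processing notes. No version, counter or strand setting was stated. In all, 141862 rows matched the transcripts of GENCODE vM21 (GRCm38), whose names and coordinates were used; 45489 assembled rows, 36.9% to 51.2% of the deposited totals of 456595115 to 773215120, were left out. Values grew with genomic span (log slope 0.737 at fixed exon length), so each was multiplied by exon length over span, summed per gene and rounded. The slope was then -0.263, a correction that is approximate and follows by construction.

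edgeR 4.0.16 (quasi-likelihood, TMM, filterByExpr; R 4.3.3) was fitted to 15376 genes and, separately, 41599 transcripts, with Benjamini-Hochberg adjustment at 0.05. CPM use TMM-scaled library sizes. DESeq2 1.42.0 was an alternative, and the scripts were tested on simulated counts. Standard errors are the size of the log2 fold change over the square root of F. The biological coefficient of variation was 0.383. Named genes were the 13 mitochondrial ones, the paralog sets and, in each complex, nuclear-encoded members picked by level or fold change. These were the 3 highest per length and the 3 largest fold changes at a mean of at least 5 CPM. Others are named after their values were seen. Results for some genes are not reported here. The members and lists were chosen with earlier results of these data known.

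Deviations from the group mean correlated at 0.110, 0.144 and 0.266 between libraries of the same number and at -0.170 to 0.0402 otherwise. The fit that blocks same-numbered libraries was therefore run as an alternative. The values given for genes come from the fit without pairing unless the block is named. Whether the numbers in the titles mark true pairs is not known.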

Additional observations from a re-analysis of the deposited data

How the results depend on the processing

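No setting called a member: 0 of the members tested passed with DESeq2, with DESeq2's size factors, with unrescaled values, without the filter on low counts, with a mean of at least 50 counts, with protein-coding transcripts only, without on/off transcripts (near 0 in every library of 1 group and present in every library of the other), with mitochondrial genes out of the library sizes, with the replicate block, and without any 1 library (lowest adjusted p from 0.129 to 0.939). The count over all genes, 4, was less stable: DESeq2 called 292, the replicate block 0, protein-coding transcripts only 2, on/off transcripts left out 1, and leaving out 1 library 1 to 13. Without both libraries numbered 3, a setting chosen after seeing the data, it was 0, with 0 members. Annotated transcripts called, 3, became 0 with the replicate block, 0 without the filter and 0 to 1 without 1 library.

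The median of the nuclear members stayed below 0 in every setting, at -0.093 to -0.071 outside the settings that leave libraries out. It was -0.16 to -0.023 without 1 library and -0.12 without both libraries numbered 3. The number of nuclear members below 0, 66 of 89 with all libraries, depended on single libraries. It was 51 without PBS library 2 and 76 without Ti library 2. The mitochondrially encoded median was 0.069 to 0.098 and -0.16 to 0.25 without 1 library. Many values changed sign: 15 to 23 of 101 members without 1 library, 8 of 97 with protein-coding transcripts only, 12 of 99 without both libraries numbered 3, and 0 to 6 in the other settings. Examples were Ndufa10 (2.34), Ndufaf5 (-0.42) and Ndufb10 (-0.25) with protein-coding transcripts only, Ndufb10 without both libraries numbered 3 (-0.46), and, without 1 library, Ndufb10 (-0.26 to 0.68), Sdha (-0.22 to 0.67), Atp5b (-0.40 to 0.30) and Ndufs3 (-0.96 to 0.46). These values had no call to lose, and the cause was not tested. The replicate block changed no other call.

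With 3 libraries a group the median 95% interval of a nuclear member reached 0.43 log2 units to each side. These intervals are not adjusted for the number of genes tested, so 0.43 is not a detection limit. Atp5e, at a log2 fold change of -0.97, was not called by edgeR (adjusted p = 0.546). The rescaling is approximate, transcript estimates jumped between isoforms in single libraries, and the deposited totals cannot be read as depths.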

Other observations

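The mitochondrial ribosomal RNA genes lie outside the protein-coding rule. mt-Rnr2 had 7961, 6201 and 3611 CPM in the PBS libraries and 5235, 5120.1 and 4502 CPM in the Ti libraries, and mt-Rnr1 had 81.5, 57.8 and 43.5 CPM in the PBS libraries and 55.1, 60.9 and 37 CPM in the Ti libraries. PBS library 1 was the highest of all 6 for both, PBS library 3 was the lowest for mt-Rnr2 and Ti library 3 for mt-Rnr1. The levels of ribosomal RNA depend on how a library was prepared, which the sources used here do not state in detail. Of the 7 pseudogenes named after members, Ndufab1-ps had the highest mean level, 3.80 CPM, and the other 6 had 0.203 CPM or less.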
